A study of Mus musculus domesticus with 12 samples.

Results

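Antisense RNAs are transcribed from the strand opposite to a neighbouring gene. The genes described here are those of annotated type antisense in GENCODE M21 whose mean level over the 12 libraries was at least 1 TPM, a unit of reads scaled for transcript length and library depth. They number 104 of 2959 antisense genes and of 55385 genes in the tables. The libraries are total RNA from mouse fetal liver (C57BL/6J, E14.5), depleted of lineage-positive cells and infected with retroviruses that carry a short hairpin RNA (shRNA) and GFP. GFP+ erythroid precursors and proerythroblasts, CD71 int or CD71+ and Ter119-, were sorted after 2 days in erythroid expansion medium. The groups are shDis3 and shExosc10, with hairpins against each of the catalytic subunits of the RNA exosome, and shLuc, with a hairpin against firefly luciferase as the control. Each group has 4 libraries. All 3 groups share the infection, the culture and the sort. The labels do not say whether replicates came from separate animals, litters or cultures, so the p-values measure the spread between these libraries, which may be technical.

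The RNA exosome is a ring of subunits that carries the ribonucleases Dis3 and Exosc10. In the nucleus it trims ribosomal, small nuclear and small nucleolar RNAs and degrades short-lived RNA made upstream of and opposite to genes. Many mammalian promoters fire in both directions, and the upstream antisense product is a known exosome substrate. Other antisense RNAs are long and stable, some host a small RNA, and a few, such as Kcnq1ot1 and Airn, silence neighbouring genes at imprinted loci.

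Stretches of 3 members show what such genes contain. The coordinates are GRCm38 and the letters come from the GENCODE M21 transcripts. F630028O10Rik (chrX:96242787-96242956, + strand) carries the Mir223 hairpin, in capitals, in its last exon. Rab26os (chr17:24528446-24528583, + strand) carries the small nucleolar RNA Snord60, in capitals. Gm15444 (chr3:96220019-96220168, - strand) crosses a histone gene, and the capitals mark a run of 98 bases that is also complementary to a second histone gene, Hist2h2aa2.
F630028O10Rik: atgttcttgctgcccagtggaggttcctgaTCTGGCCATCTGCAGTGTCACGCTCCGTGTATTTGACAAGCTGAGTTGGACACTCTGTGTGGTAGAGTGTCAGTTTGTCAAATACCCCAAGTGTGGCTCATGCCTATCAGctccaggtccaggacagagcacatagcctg
Rab26os: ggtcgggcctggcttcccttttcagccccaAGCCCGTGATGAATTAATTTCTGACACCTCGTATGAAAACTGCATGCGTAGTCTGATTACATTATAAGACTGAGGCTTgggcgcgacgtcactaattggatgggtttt
Gm15444: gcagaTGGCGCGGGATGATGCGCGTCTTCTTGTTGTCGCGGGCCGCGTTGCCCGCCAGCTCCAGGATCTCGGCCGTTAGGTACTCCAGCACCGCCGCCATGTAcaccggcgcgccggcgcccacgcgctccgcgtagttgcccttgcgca
The hairpin spans 110 bases of F630028O10Rik and Snord60 spans 78 bases of Rab26os. Mir223 and Snord60 are listed as genes of their own with 0 counts in every library, so reads over them, if any, stand under the host or nowhere. Gm15444 shares a run of 304 bases with the complement of Hist2h2ab and of 103 bases with that of Hist2h2ac. If reads were counted without regard to strand, its reads could be shared with those genes.

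The members lie close to other genes. A start within 1 kb of a protein-coding start on the opposite strand was found for 51 of the 104, at a median distance of 188 bases. Exons of 42 others overlap exons of an opposite-strand gene, 8 lie over introns only, and 3 (F630028O10Rik, Gm12735 and Gm43079) overlap no opposite-strand gene in this annotation. Among the 2241 antisense genes with reads but under 1 TPM, the same groups hold 490, 984, 681 and 86 genes, so divergent starts made up 49.0% of the members and 21.9% of these others. Divergent start here means the distance alone, whatever the direction. The group also holds genes that start inside the opposite-strand gene and overlap it, such as Tug1 with Morc2a and Gm12999 with Atpif1. How many of them do so was not counted. Single-exon genes made up 18.3% of the members and 7.18% of the others. The opposite-strand gene had a median of 7.52 TPM for the members and 0.972 TPM for the others. These differences are descriptions, since the members were chosen by level, and short models reach 1 TPM with few reads.

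**Figure D1:**
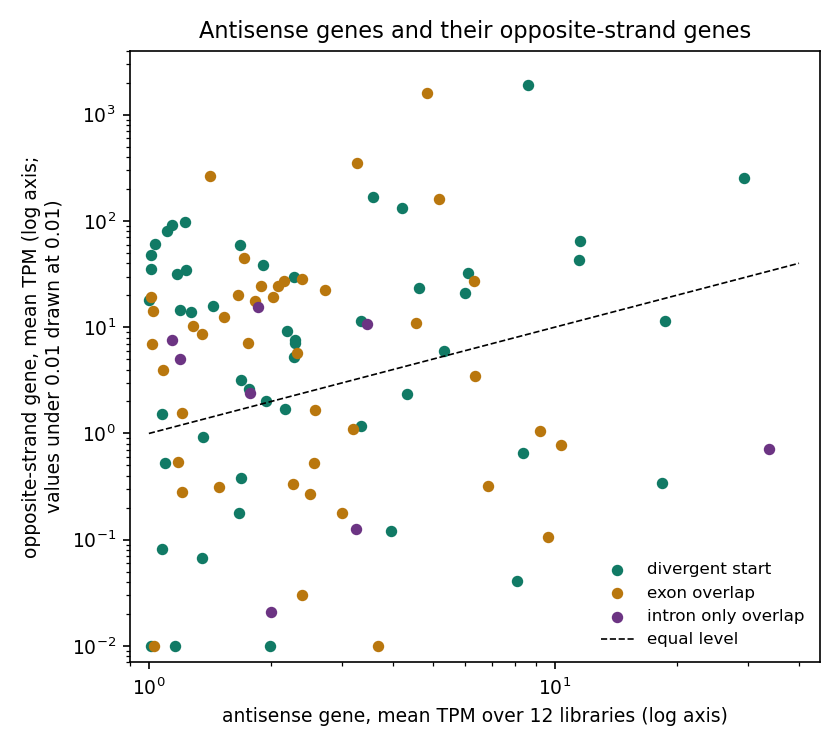
Mean TPM of each antisense gene (x, log axis) and of its opposite-strand gene (y, log axis) over 12 libraries, coloured by arrangement. The opposite-strand gene was the higher in 64 of 101 pairs (above the dashed line), and Gm15915 at 33.7 TPM stands far to the right over a gene at 0.707 TPM.

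Levels were low. The median member stood at 2.04 TPM and 51 of 104 were under 2 TPM, while 8 reached 10 TPM. The values just inside the limit were 1.01 TPM for A430057M04Rik, 1.01 TPM for Gm15491 and 1.001 TPM for Gm12932. Just outside stood 1700008J07Rik at 0.988 TPM, 2900093K20Rik at 0.960 TPM and 6230400D17Rik at 0.952 TPM. Reads were found in all 12 libraries for 94 members. Snhg9, a host of small nucleolar RNA, was a member through its length alone: 9 reads in all 12 libraries over an effective length of 4.8 bases gave it 4.85 TPM. With Gm29155, Gm43079 and Gm4221 it failed the filter on low counts, so 100 members were tested.

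The members together held 0.0715% to 0.129% of the gene counts of a library. Their sum, in counts scaled to library size with edgeR's TMM factors (CPM), was 943, 925, 898 and 837 in the shDis3 libraries, 801, 882, 959 and 1202 in the shExosc10 libraries, and 1026, 758, 838 and 765 in the shLuc libraries. These ranges overlap. Kcnq1ot1 alone gave 22.9% to 50.3% of the members' counts.

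Depth was 14936200 to 32397204 counts per library. The hairpin targets followed the labels in every library. Dis3 had 33.8, 22.7, 43.7 and 53.3 CPM with shDis3, against 114 to 161 CPM with shLuc. Exosc10 had 31.2, 25.9, 19.1 and 29.8 CPM with shExosc10, against 84.3 to 114 CPM with shLuc. By edgeR's quasi-likelihood test with Benjamini-Hochberg adjustment over 17650 genes, Exosc10 fell in shExosc10 (log2 fold change -1.89 ± 0.21 SE, adjusted p = 0.00502). Dis3 had -1.78 ± 0.24 in shDis3 (adjusted p = 0.0581), short of the threshold on the adjusted p. Erythroid markers summed to 1267 to 2041 CPM in shDis3, 1481 to 2896 CPM in shExosc10 and 1005 to 2604 CPM in shLuc, with medians of 1592, 2473 and 2244 CPM. Across tested genes, 8 of the 12 libraries had their closest library in another group, 5 of them by more than 0.01 in r. Of these, shLuc replicate 4 had r = 0.986 with shDis3 replicate 3, against 0.946 at most within its group. For shExosc10 replicate 1 it was 0.981 with shDis3 replicate 4, against 0.942. For shDis3 the values were 0.963 against 0.93 in replicate 2, 0.986 against 0.972 in replicate 3 and 0.981 against 0.968 in replicate 4. Mast cell and basophil markers summed to 69.2 and 90.5 CPM in shDis3 replicates 3 and 4, 116 CPM in shExosc10 replicate 1 and 118 CPM in shLuc replicate 4, against 7.03 to 21.9 CPM in the other 8. Fcer1a, a defining marker of that list, had 0 counts in all 12. Results are therefore also given without shDis3 replicate 4, shExosc10 replicate 1 and shLuc replicate 4, 1 library a group picked for this likeness, so a count without them is not independent evidence. In these counts shDis3 replicates 2 and 3, whose gaps in r were no smaller than that of shDis3 replicate 4, were kept. In bulk samples, fewer cells of a type and less RNA per cell cannot be told apart.

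No member passed the test after knockdown of either subunit. In shDis3 against shLuc, 0 of 100 members had an adjusted p under 0.05, where 0.0% of all genes tested did. In shExosc10 against shLuc, 0 of 100 did, against 0.00567% of all genes, which is Exosc10 itself. In shDis3 against shExosc10, 0 of 100 did, against 0.0113%, which are Dis3 and Exosc10. The lowest adjusted p of a member in these comparisons was 0.776, 1.0 and 0.770 in that order. DESeq2 called 1 member in the first comparison, beside 0.203% of all genes it gave an adjusted p, and 0 in the others, beside 0.0145% and 0.377%. With no filter on low counts, edgeR called 1 member in the first and 1 in the second comparison, beside 0.297% and 0.0242%, and 0 in the third, beside 0.433%. Without the 3 libraries left out for their likeness to another group, it called 2, 0 and 0 members, beside 4.04%, 0.0157% and 3.23% of all genes. With limma on log2(TPM + 1) the members called were 0 in each.

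At an unadjusted p under 0.05, 4 of 100 members passed in shDis3 against shLuc, a share of 4.0% beside 4.07% of all genes. All 4 were higher, where 2.01% of all genes passed on that side. They were F630028O10Rik, 9330020H09Rik, 1500015A07Rik and 6330418K02Rik. In shExosc10 against shLuc, 3 of 100 passed, against 2.1% of all genes, and all 3 were higher, against 0.912%. They were F630028O10Rik, 1500015A07Rik and Gm15915. In shDis3 against shExosc10, 2 of 100 passed, against 5.98% of all genes. They were 9330020H09Rik, higher like 3.18% of all genes, and Gt(ROSA)26Sor, lower like 2.79%. The comparisons with shLuc share the shLuc libraries.

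The median log2 fold change of the members was 0.18 in shDis3 against shLuc, 0.05 in shExosc10 against shLuc and 0.11 in shDis3 against shExosc10, beside 0.02, 0.02 and 0.01 over all genes tested. Positive values were found for 63, 54 and 58 of the 100 members, beside 52.6%, 52.2% and 51.2% of all genes. The median member level had an SD of 0.198 between libraries of a group on the log2 scale, which gives a difference between means of 4 libraries a standard error of 0.14. That error describes the spread and is not a threshold. The medians were not tested, since the members were chosen with earlier results known. The standard error of a member's log2 fold change had a median of 0.47 and reached 1.33 in shDis3 against shLuc. In that comparison 8 members differed by more than 1 on the log2 scale, none past the threshold.

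By arrangement, the 51 members with a divergent start had a median of 0.19 in shDis3 against shLuc and 0.15 in shExosc10 against shLuc. The 41 tested members with exon overlap had 0.20 and -0.06. The 6 tested members over introns only had -0.36 and -0.15, with 5 and 4 of them below 0. The 17 members named after the gene opposite them (symbols ending in os) ranged between -0.68 (Asb17os and Ttc39aos1) and 1.29 (Ccdc142os) in shDis3 against shLuc, with 10 of 17 above 0. None of the arrangements was tested as a list.

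**Figure D2:**
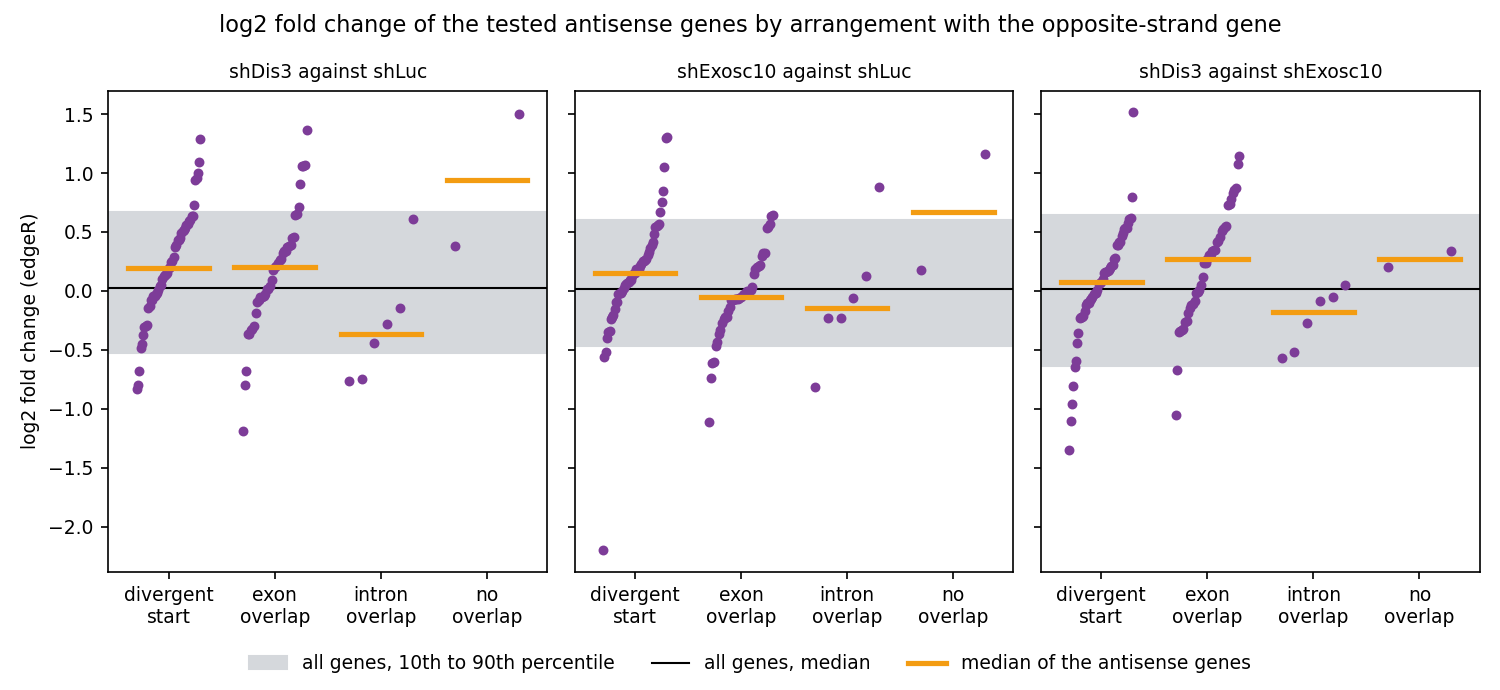
Log2 fold change (y) of the 100 tested antisense genes by arrangement with the opposite-strand gene, for the 3 comparisons; each point is a gene, orange lines are medians, the grey band spans the 10th to 90th percentile of all 17650 genes and the black line their median. Most points lie in the band, and F630028O10Rik at 1.503 is the highest in the left panel.

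F630028O10Rik, the Mir223 host, had the largest log2 fold change of the members in shDis3 against shLuc. It lies on chromosome X, 96239926 to 96243636, + strand, in 3 exons. The microRNA made from its hairpin, miR-223, is best known from myeloid cells. Its level was 59.1, 88.4, 26.98 and 53.5 CPM in the shDis3 libraries, 72.0, 35.5, 36.7 and 40.9 CPM in the shExosc10 libraries, and 25.7, 25.3, 15.4 and 15.2 CPM in the shLuc libraries. Every knockdown library was above every shLuc library, by little between shDis3 replicate 3 and shLuc replicates 1 and 2. The counts behind them were 335 to 1874 per library. The log2 fold change was 1.503 ± 0.35 SE in shDis3 (adjusted p = 0.776) and 1.17 ± 0.35 in shExosc10 (adjusted p = 1.0), by edgeR. Neither passed the threshold. By DESeq2 the shDis3 difference was 1.51 with an adjusted p of 0.0348, and with no filter on low counts edgeR gave adjusted p-values of 2.74e-05 in shDis3 and 0.0310 in shExosc10. Over the alternatives tried, the adjusted p ran between those lowest values and 1.0. Without shDis3 replicate 4, shExosc10 replicate 1 and shLuc replicate 4, shDis3 stood at 1.42 (adjusted p = 0.0293) and shExosc10 at 0.77 (adjusted p = 1.0).

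Markers of granulocytes moved among the same libraries. The 8 listed genes, all detected, summed to 2116 to 4960 CPM in shDis3, 1308 to 2066 CPM in shExosc10 and 1034 to 4246 CPM in shLuc. The medians of these sums were 3341 CPM in shDis3, 1555 CPM in shExosc10 and 1413 CPM in shLuc. Macrophage and monocyte markers had median sums of 102.0 CPM in shDis3, 102.7 CPM in shExosc10 and 104.1 CPM in shLuc. Mpo, the myeloperoxidase of granules, had 3869, 2290, 2851 and 1586 CPM in shDis3, 1518, 1113, 828 and 857 CPM in shExosc10, and 575, 762, 1017 and 3652 CPM in shLuc. In shLuc replicate 4 the granulocyte list was the highest of its group. F630028O10Rik was the lowest of its group there by little, at 15.2 CPM beside 15.4 CPM in shLuc replicate 3. In shExosc10 replicate 1 both were the highest of their group. In shDis3 the list was highest in replicate 1 and F630028O10Rik in replicate 2. In shDis3 against shLuc the log2 fold change was 0.825 ± 0.48 for Mpo, 1.04 ± 0.38 and 0.76 ± 0.37 for the granule proteases Prtn3 and Elane, and 0.10 ± 0.23 for Spi1, a myeloid and early progenitor transcription factor (adjusted p = 1.0 each, edgeR). In shExosc10 against shLuc, where F630028O10Rik had 1.17, the values were -0.48 ± 0.47 for Mpo, -0.00026 ± 0.37 for Prtn3, -0.04 ± 0.37 for Elane and -0.49 ± 0.23 for Spi1 (adjusted p = 1.0 each, edgeR). Megakaryocyte markers, 10 of 10 detected, summed to 284.2 to 375 CPM in shDis3, 134.1 to 323 CPM in shExosc10 and 81.95 to 417.8 CPM in shLuc, with medians of 361, 149.9 and 108.9 CPM. Stem and early progenitor markers, 8 of 8 detected, summed to 413.5 to 749.6 CPM in shDis3, 333.9 to 755.4 CPM in shExosc10 and 312.8 to 806.5 CPM in shLuc, with medians of 635.5, 443.5 and 371.9 CPM. Both lists were highest in shLuc replicate 4. The part of these cells in the members' results was not tested.

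**Figure D3:**
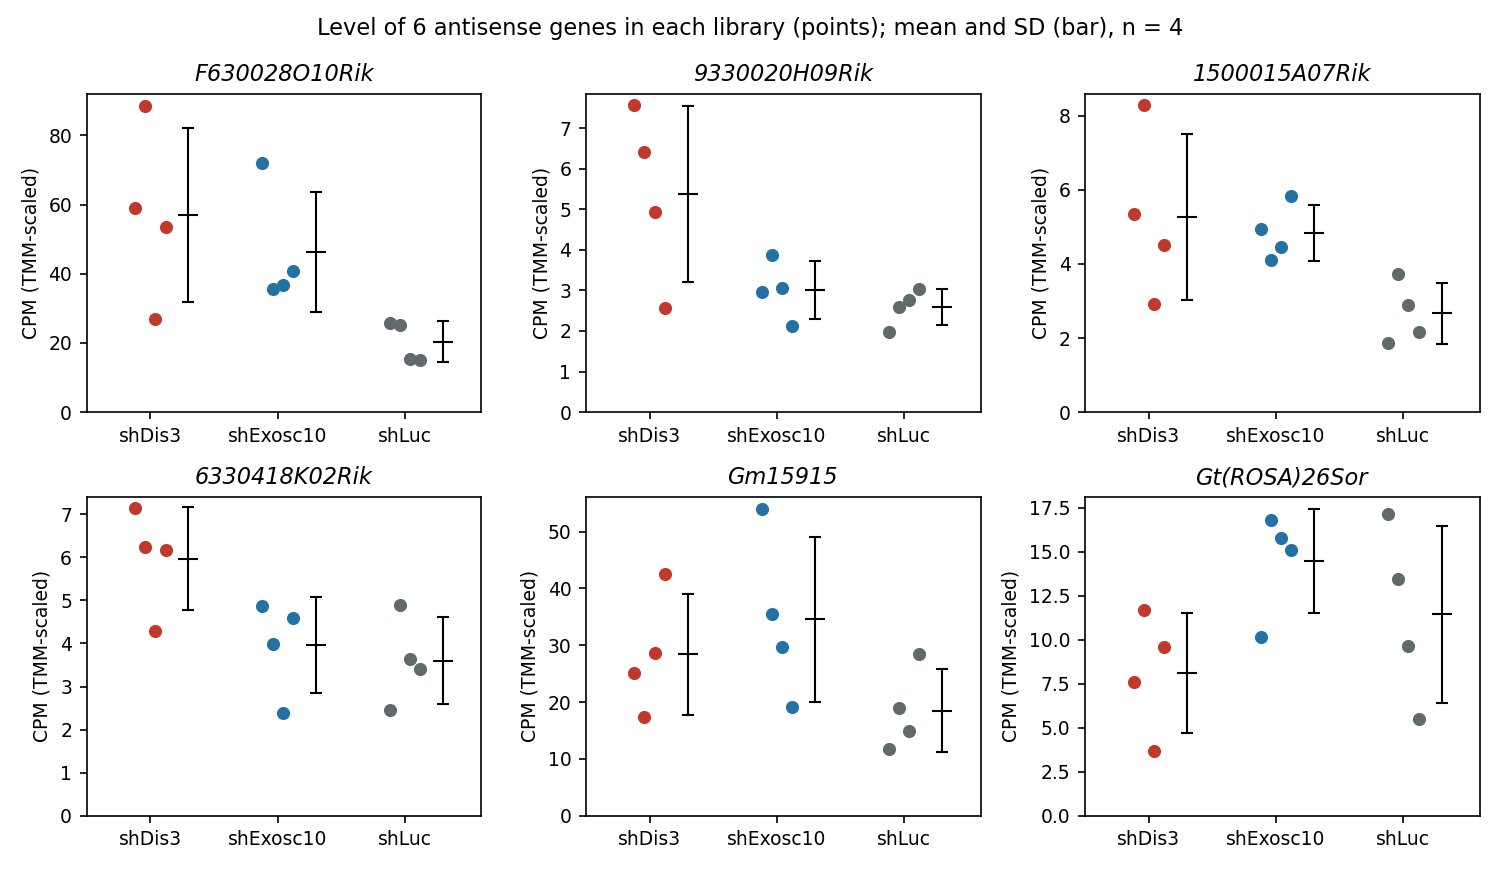
CPM of 6 antisense genes (y, from 0) in each of the shDis3, shExosc10 and shLuc libraries (points), with mean and SD as bars (n = 4 each). For F630028O10Rik all 8 knockdown libraries lie above the 4 shLuc libraries, whose highest value is 25.7 CPM, and for the other 5 genes shDis3 overlaps shLuc.

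Of the other members at an unadjusted p under 0.05, 9330020H09Rik, opposite the cyclin gene Ccnt1 on chromosome 15 (98567324 to 98569583, + strand), had 7.57, 6.41, 4.94 and 2.56 CPM in shDis3, 2.96, 3.86, 3.07 and 2.12 CPM in shExosc10, and 1.98, 2.59, 2.76 and 3.04 CPM in shLuc. Replicate 4 of shDis3 was at the level of the shLuc libraries, and the other 3 were above all of them. The log2 fold change in shDis3 was 1.06 ± 0.35 (adjusted p = 1.0, edgeR), and 1.37 with an adjusted p of 0.0296 without the 3 libraries named above. Ccnt1 itself had -0.28.

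1500015A07Rik starts 65 bases from a protein-coding start on the opposite strand. It had 5.36, 8.28, 2.92 and 4.52 CPM in shDis3, 4.96, 4.10, 4.45 and 5.84 CPM in shExosc10, and 1.87, 3.73, 2.89 and 2.16 CPM in shLuc. The shExosc10 libraries did not overlap the shLuc libraries, while the shDis3 libraries did. 6330418K02Rik, with a start 10 bases from that of BC037034 on chromosome 5, had 7.14, 6.25, 4.30 and 6.18 CPM in shDis3, 4.88, 3.98, 2.40 and 4.59 CPM in shExosc10, and 2.45, 4.91, 3.63 and 3.41 CPM in shLuc. Only the highest shLuc library reached into the shDis3 range.

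Gm15915 had the highest level per length of the members, at 33.7 TPM. It lies in an intron of Ntn4, a secreted netrin, on chromosome 10 (93674218 to 93683322, - strand). Its levels were 25.0, 17.3, 28.6 and 42.6 CPM in shDis3, 54.0, 35.4, 29.6 and 19.2 CPM in shExosc10, and 11.7, 19.0, 15.0 and 28.4 CPM in shLuc. The groups overlap. The log2 fold change was 0.61 ± 0.33 in shDis3 and 0.89 ± 0.34 in shExosc10 (adjusted p = 1.0, edgeR). Ntn4 stood at 0.707 TPM, far below the antisense gene.

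Few members had levels that did not overlap between groups. In shDis3 against shLuc, 1 of 100 members was higher in every shDis3 library (F630028O10Rik), beside 0.765% of all genes, and 0 were lower, beside 0.686%. In shExosc10 against shLuc, 4 of 100 were higher (1500015A07Rik, D130020L05Rik, F630028O10Rik and Gm11423), beside 1.1%, and 2 were lower (Gm26982 and Ttc39aos1), beside 1.22%. In shDis3 against shExosc10, Gm15879 was lower and none was higher, beside 1.76% and 1.46%. Gm11423, with a start 66 bases from that of the DNA ligase gene Lig3, had 1.08, 0.975, 1.05 and 1.01 CPM in shExosc10, against 0.312, 0.840, 0.138 and 0.337 CPM in shLuc. Ttc39aos1 had 0, 0.163, 0.101 and 0.483 CPM in shExosc10, against 0.937, 1.28, 0.689 and 0.540 CPM in shLuc. That difference (log2 fold change -2.20 ± 1.04, adjusted p = 1.0, edgeR) rests on 0 to 10 reads a library with shExosc10.

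Tug1 and Gt(ROSA)26Sor had overlapping levels in the 3 groups. Tug1, a long non-coding RNA that starts 482 bases from the opposite start of Morc2a, had 102, 72.7, 90.5 and 85.3 CPM in shDis3, 72.9, 88.4, 78.7 and 94.7 CPM in shExosc10, and 82.5, 86.6, 65.7 and 91.0 CPM in shLuc. Its ratio of highest to lowest library, 1.55, was the smallest of the members with reads in every library, whose median was 4.11. The median coefficient of variation of the members within groups was 37.3% in shDis3, 36% in shExosc10 and 42.2% in shLuc. Gt(ROSA)26Sor, the transcript of the Rosa26 locus used for transgenes, had 7.61, 11.7, 3.66 and 9.57 CPM in shDis3, 10.2, 16.8, 15.8 and 15.1 CPM in shExosc10, and 17.2, 13.5, 9.65 and 5.50 CPM in shLuc. It was lower in shDis3 than in shExosc10 by 0.81 ± 0.38 on the log2 scale with the ranges overlapping (adjusted p = 0.824, edgeR). Rab26os at 18.4 TPM had log2 fold changes of -0.15 ± 0.51 in shDis3 and -0.57 ± 0.51 in shExosc10.

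The imprinted antisense RNAs showed the spread of single libraries. Kcnq1ot1 silences genes of the Kcnq1 cluster in cis, and is the longest effective transcript of the members. It had 312, 302, 396 and 192 CPM in shDis3, 211, 345, 378 and 605 CPM in shExosc10, and 442, 255, 240 and 315 CPM in shLuc. The log2 fold changes were -0.05 ± 0.31 and 0.29 ± 0.31. Airn, which silences Igf2r in cis, had 5.79, 3.56, 2.66 and 0.904 CPM in shDis3, 0.423, 5.73, 5.16 and 8.01 CPM in shExosc10, and 7.65, 4.81, 4.78 and 0.337 CPM in shLuc. Its lowest values were in shDis3 replicate 4, shExosc10 replicate 1 and shLuc replicate 4, the libraries left out above. Nespas, antisense to Nesp at the Gnas locus, averaged 8.76 ± 1.502 CPM in shDis3, 11.1 ± 4.0 CPM in shExosc10 and 11.0 ± 3.43 CPM in shLuc (SD, n = 4 each). None of these 3 passed the test in any comparison by edgeR, at an adjusted or an unadjusted p under 0.05.

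Members at the histone cluster of chromosome 3 were uncertain in their reads. Gm20632, a single-exon gene opposite Hist2h2aa2, had 75.6, 53.3, 70.8 and 150 CPM in shDis3, 97.7, 53.2, 72.3 and 66.5 CPM in shExosc10, and 78.4, 52.5, 147 and 57.6 CPM in shLuc. A single library was high in the shDis3 and shLuc groups. Gm15444, printed above, had 3.56 TPM and Hist2h2ab 169 TPM. The counts of Gm15444 were whole numbers in every library. Gm20632 and Gm20633 had counts that were not whole, 1946.69 and 633.31 in shDis3 replicate 1. Which reads these genes share with others was not tested. The strand setting of the authors' counting is not given in the sources used here, although the kit keeps strand. Gm12999 lies wholly within exons of Atpif1, an inhibitor of the mitochondrial ATP synthase, and had 8.59 TPM where Atpif1 had 1893 TPM. In such pairs, 4 of the 104, that setting decides whether reads of the antisense gene and of its partner were told apart. The counts of these members (Gm12999, Gm20463, Gm43118 and Gm37634) were whole numbers in every library. Whether reads were shared was not tested. The same limit holds for the overlapping bases of members with partial exon overlap. Examples are Gm45051 at 70.1% of its exonic bases and 6330418K02Rik at 65.6%. Reads from introns of a partner were not examined.

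The opposite-strand genes did not pass the test either. Of 86 partners with a test, 0 were called in any of the comparisons by edgeR. Antisense gene and partner had the same sign in 47 of 86 pairs in shDis3 against shLuc and in 44 of 86 in shExosc10 against shLuc. Of the exosome and its nuclear cofactors, the targets apart, no gene passed the test against shLuc by edgeR: of 28 tested genes of that list, 0 were called in shDis3 against shLuc, and Exosc10 was the 1 called, lower, in shExosc10 against shLuc. Mtrex, the helicase that feeds nuclear RNA to the exosome, had log2 fold changes of -0.05 ± 0.20 and 0.19 ± 0.20. Zfc3h1, which links polyadenylated nuclear RNA to that helicase, had -0.10 ± 0.20 and 0.08 ± 0.20. Exosc6, a ring subunit, had 0 counts in every library, while the other listed ring subunits had reads in all of them. Whether that 0 reflects the RNA or the counting of this gene was not tested.

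Olfactory receptor genes, 1407 in number, are silent in most tissues outside the nose and can register genomic DNA in a library. Their sum was 33.1, 544, 6.93 and 16.99 CPM in shDis3, 12.9, 221, 164 and 260 CPM in shExosc10, and 44.8, 338, 165 and 8.36 CPM in shLuc. Each group held libraries over 160 CPM and libraries under 20 CPM. The group means were 150 ± 263 CPM in shDis3, 164 ± 108 CPM in shExosc10 and 139 ± 149 CPM in shLuc (SD, n = 4 each). They differed by less than that spread (two-sided exact permutation tests, p = 0.943 between shDis3 and shLuc, 0.771 between shExosc10 and shLuc, and 0.971 between shDis3 and shExosc10; adjusted p = 0.971 each; the smallest p possible is 0.0286). The sum of the members varied far less, between 758 and 1202 CPM. The highest olfactory receptor sums, in shDis3 replicate 2 and shLuc replicate 2, stood beside member sums of 925 and 758 CPM, and the third highest, in shExosc10 replicate 4, beside the highest member sum.

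**Figure D4:**
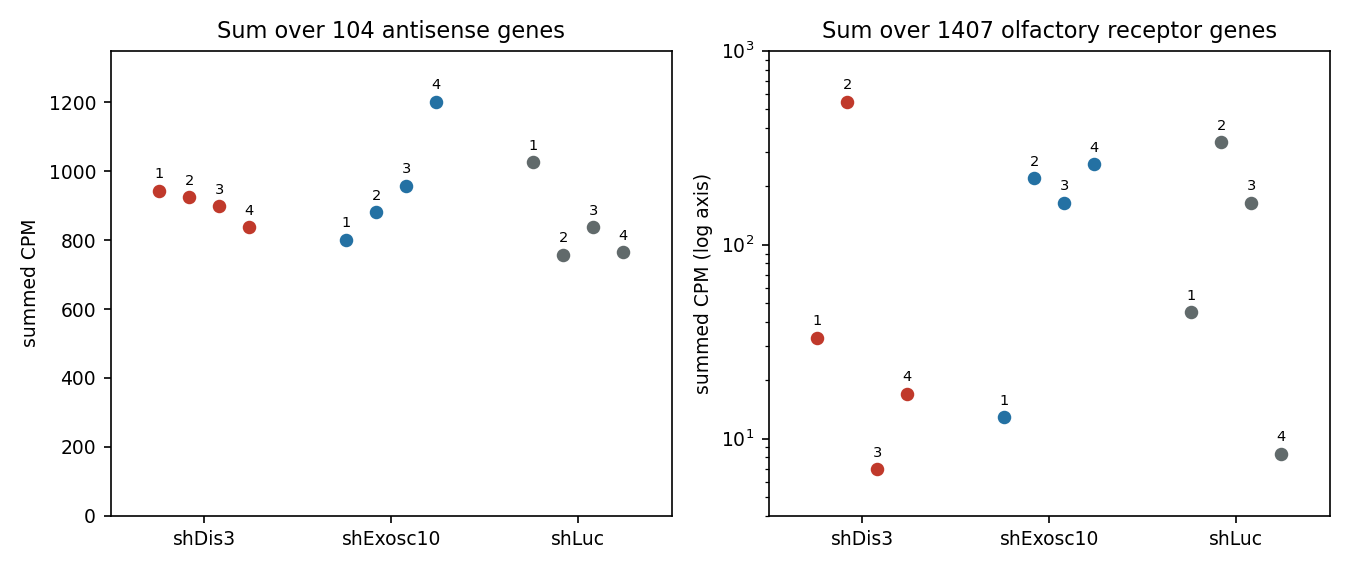
Summed CPM of the 104 antisense genes (left, from 0) and of 1407 olfactory receptor genes (right, log axis) in each library, labelled by replicate number. The antisense sum spans 758 to 1202 CPM and the olfactory receptor sum 6.93 to 544 CPM, with high and low libraries in every group.

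A fit with group and the log2 olfactory receptor sum asked which members moved with it within groups. Of 100 members, 17 had an adjusted p under 0.05 by edgeR, 14 higher and 3 lower with the sum, which is 17% beside 28.9% of all genes tested. In the higher direction it was 14 of 100 beside 20.2%, and in the lower direction 3 of 100 beside 8.71%. The shares of all genes include any olfactory receptor genes past the filter on low counts, whose own reads make up the sum. Low genes that pass the filter through libraries with a high sum can also add to them. A lower share among the members is therefore a description. Gm12735 moved most, by 0.98 ± 0.13 (SE) on the log2 scale per doubling of the sum (adjusted p = 9.65e-05). It has 2 exons on chromosome 11 (3193516 to 3194263, - strand) and overlaps no opposite-strand gene. It had 0.311, 3.95, 0.175 and 0.113 CPM in shDis3, 0.038, 0.975, 1.28 and 1.88 CPM in shExosc10, and 0.312, 2.02, 1.33 and 0 CPM in shLuc. Its 6 lowest levels were in the 6 libraries with the lowest olfactory receptor sums, and the highest values of both were in shDis3 replicate 2.

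5830418P13Rik moved by 0.53 ± 0.12 (adjusted p = 0.00493), Hk1os, opposite the hexokinase gene Hk1, by 0.30 ± 0.07 (adjusted p = 0.00649) and BC065403 by 0.77 ± 0.19 (adjusted p = 0.00793), by edgeR. Hk1 itself moved by 0.05. Asb17os, Gt(ROSA)26Sor, Gm42067, Gm37305, 2610020C07Rik, 4732440D04Rik and Gm20633 moved by 0.18 to 0.35. Gm15915 moved the other way, by -0.15 ± 0.05 (adjusted p = 0.0331), as did Lrrc75aos2 and Gm16104 (Gm16104 was chosen after its values were seen). Of the 14 that were higher with the sum, 11 have more than 1 exon, as do 81 of the 100 members tested. The antisense genes under 1 TPM had a median coefficient of 0.52 over the 351 tested, beside 0.06 for the members and 0.01 for all genes. Only those 351 of 2241 passed the filter on low counts. A gene this low can pass it through the libraries where it is high, and the sets differ in level. These medians are therefore descriptions.

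The number of members that moved with the sum rested on single libraries. It was 6 without shDis3 replicate 2, where 21.2% of all genes tested were called, and 8 without shDis3 replicate 3, where 35.1% were. It was 11 without shLuc replicate 2, beside 26%, and 6 without shLuc replicate 4, beside 31.3%. Without the 3 libraries named above it was 6, beside 26.7%. The 4 libraries under 20 CPM of olfactory receptor reads, shDis3 replicates 3 and 4, shExosc10 replicate 1 and shLuc replicate 4, are also those with the highest mast cell and basophil sums. The olfactory receptor sum and that profile can therefore not be told apart within these groups. With the sum as a covariate, no member was called in the comparisons between groups by edgeR, and the median member log2 fold change was 0.25 in shDis3 against shLuc and -0.0039 in shExosc10 against shLuc. F630028O10Rik had 1.51 (adjusted p = 0.323) and 1.17 (adjusted p = 0.998) in that fit, and did not pass the test with the sum itself (0.07 ± 0.06, adjusted p = 0.431).

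**Figure D5:**
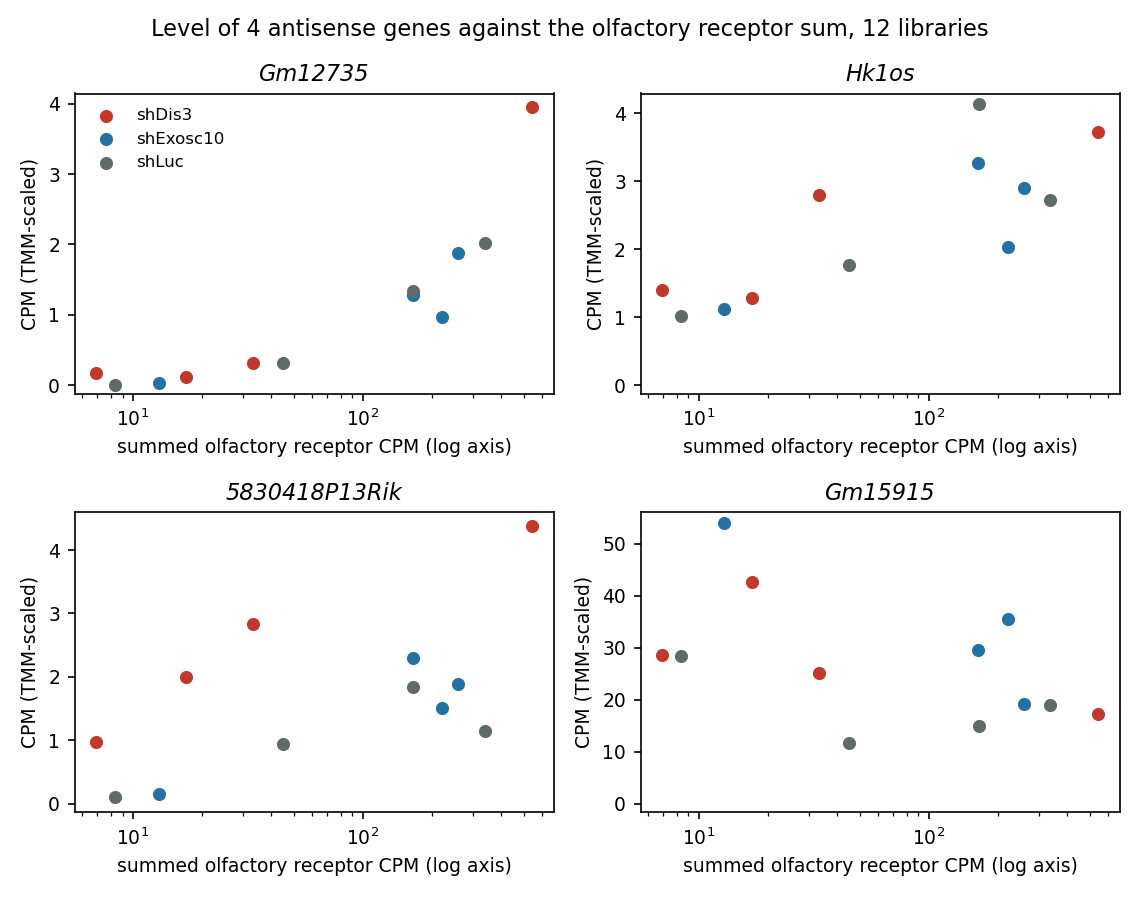
CPM (y) of Gm12735, Hk1os, 5830418P13Rik and Gm15915 against the summed olfactory receptor CPM (x, log axis) in 12 libraries, coloured by group. Gm12735 is under 0.32 CPM in the 6 libraries below 50 CPM of olfactory receptor reads and 0.975 CPM or more in the other 6, while Gm15915 is highest, at 54.0 CPM, in a library with 12.9 CPM.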

How the data were processed

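RNA was extracted with Trizol and made into libraries with a SMARTer stranded Pico kit (v2) for total RNA, per the labels. Per the submitters' processing notes, STAR 2.5.3a and RSEM 1.3.0 were used with mm10/GRCm38. Annotation release, strand setting and filters: not given in the sources used here. The authors deposited, per gene and library, RSEM expected counts and TPM. Gene identifiers were matched to GENCODE M21, 55144 of 55385 without version; 4.55% of the gene counts were not whole. TPM chose the members; it inflates genes of short effective length.

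Expected counts were rounded and tested with edgeR 4.0.16 (R 4.3.3): TMM factors, a filter on low counts by group, a quasi-likelihood fit by group over all 12 libraries, and Benjamini-Hochberg adjustment over 17650 genes with a threshold of 0.05. DESeq2 1.42.0 and limma 3.58.1 on log2(TPM + 1) were alternatives. Counting error is only part of the spread: the biological coefficient of variation was 60%. The sum of genes named Olfr, in CPM, was compared between groups by exact permutation and, as log2, added to the fit. The script was checked on simulated data. Partners are the opposite-strand gene with the longest overlap or, failing one, the nearest opposite start within 5 kb.

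Named are members called in a comparison or with the olfactory receptor sum (at most 12), the 12 with the highest mean TPM, the 5 highest and 5 lowest log2 fold changes per comparison, antisense RNAs with names of their own, those next to the 1 TPM limit, their partners, and Dis3 and Exosc10. Members singled out by an unadjusted p or by libraries that do not overlap were chosen after their values were seen. The members, lists and left-out libraries were chosen with earlier results of these data known.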

Additional observations from a re-analysis of the deposited data

Results flagged for a closer look

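In a group of 4 libraries, a value was picked out where its gap to the nearest of the others, over the range of the group, was above Dixon's 95% critical value. Of 165 groups examined, 3 were, where chance gives about 1 in 20. F630028O10Rik, the Mir223 host, had 72.0 CPM in shExosc10 replicate 1, against 35.5 to 40.9 CPM in the other shExosc10 libraries. Without that library its log2 fold change in shExosc10 against shLuc was 0.89 (adjusted p = 1.0, edgeR). Gm12735 had 3.95 CPM in shDis3 replicate 2, against 0.113 to 0.311 CPM in the other shDis3 libraries. The olfactory receptor sum had 544 CPM in the same library, against 6.93 to 33.1 CPM in the others of its group.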

How the results depend on the processing

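Of 3173 values of 53 named members under alternatives, 3168 kept their side of the threshold and 5 passed it (F630028O10Rik in 4 of them, 9330020H09Rik in the other). These are the comparisons between hairpins, in which no member was called, so no call could be lost or reversed. Counts of members called went to 1 in shDis3 against shLuc with DESeq2 and with no filter on low counts, to 2 without shDis3 replicate 4, shExosc10 replicate 1 and shLuc replicate 4 together, and to 1 in shExosc10 against shLuc with no filter. Counts over all genes moved more. In shDis3 against shLuc, 0 became 1 with RLE factors or the olfactory receptor sum as covariate, 28 with DESeq2, 123 with no filter and 772 without the 3 libraries. In shExosc10 against shLuc, 1 became 6, 0 (limma), 10 and 3 under DESeq2, limma, no filter and without the 3 libraries. In shDis3 against shExosc10, 2 became 49 with DESeq2, 0 with limma, 179 with no filter, 1 with only the 2 groups and 617 without the 3 libraries. Leaving out each library gave 0 to 146 genes (146 without shLuc replicate 4), 0 to 2 and 1 to 2 in that order, and 6 to 20 members with the olfactory receptor sum, where the fit without the 3 libraries, chosen after seeing the data, gave 6. The cause of these changes was not tested. For the olfactory receptor sum, shares of all genes are given above for only some of these fits, so that range is no result about the members.

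The labels do not say whether replicate numbers pair the libraries, and the values do not settle it. Correlations of same-numbered deviations ran between -0.47 and 0.77, over 0.1 in 7 of 12 pairs. Replicates 1 and 2 had positive values in every comparison, and replicates 3 and 4 had values of both signs. Of 12 libraries, 4 were closest to their own number. With the replicate block, 0, 1 and 1 genes were called, 0 members in each comparison, and 9 members with the olfactory receptor sum in place of 17. The share of all genes called with the sum in that fit is not given here. The change from 17 to 9 is therefore no result about the members.

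Depth limits the members: 3 of 104 had under 100 counts in all. The 229 uncalled values that changed sign carry no direction.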
